A study of Mus musculus with 14 samples.

Results

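The proteasome subunit genes were followed in MEFs, fibroblasts taken from mouse embryos and grown as primary cultures, during the first days of reprogramming. The genes were chosen by symbol: Psma, Psmb, Psmc or Psmd followed by a number and nothing else, without the immunoproteasome genes Psmb8, Psmb9 and Psmb10. This gave 36 genes of 19938 measured, from 42 probe rows, with 1 probe used per gene. The rule took 8 genes of the alpha ring, 8 of the beta ring, 6 ATPases, 3 scaffold and ubiquitin receptor subunits, 8 lid subunits and 3 assembly chaperones that carry Psmd numbers without being subunits of the finished particle.

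The MEFs carried retroviruses for Sox2, Klf4 and Oct4 (SKO), factors used to reprogram fibroblasts into pluripotent cells, or, as the control, a retrovirus that makes the green fluorescent protein GFP. After 2 days, counted from the last infection, all cultures moved to embryonic stem cell medium with serum and the cytokine LIF, with vitamin C at 50 µg/ml or without it. Lysis was on days 3, 4, 5, 6, 8 and 10 for SKO cells and on day 3 alone for GFP cells. Each condition and day had 1 array, 14 in all. The strain of the mice, the age of the embryos, the promoter of the viruses and the share of infected cells are not given in the labels used here. Of 9 fibroblast markers measured, Col1a1, a main collagen of fibroblasts, read between 11.6 and 13.1 on the log2 scale in all 14. S100a4, another of these markers, read between 5.67 and 7.24.

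The 26S proteasome destroys proteins that carry ubiquitin chains. Its 20S core is a barrel in which rings of alpha subunits form the gated ends and rings of beta subunits hold the protease sites, made by Psmb5, Psmb6 and Psmb7. A 19S cap on the barrel binds ubiquitin, unfolds the substrate with a ring of ATPases encoded by the Psmc genes, and removes the ubiquitin through Psmd14 in the lid. In many mammalian cells the subunit genes are raised together by Nfe2l1 (NRF1) when proteasome activity falls, and in immune signalling Psmb8, Psmb9 and Psmb10 replace the 3 protease subunits.

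Stretches of 250 bases before the start of transcription are shown for 3 members whose values are described below. Psma1 and Psmb4 followed a day-to-day alternation, and Psmb5, a protease subunit, did not pass that test but was lower late in the course. They are from RefSeq, assembly GRCm38.p6, on the minus strand of chr7:114276117-114276366 for Psma1, chr3:94886959-94887208 for Psmb4 and chr14:54617996-54618245 for Psmb5, and are written 5′ to 3′. Capitals mark CCAAT or GGGCGG on either strand in Psma1 and Psmb4, and TGACNNNGC on either strand in Psmb5.
Psma1: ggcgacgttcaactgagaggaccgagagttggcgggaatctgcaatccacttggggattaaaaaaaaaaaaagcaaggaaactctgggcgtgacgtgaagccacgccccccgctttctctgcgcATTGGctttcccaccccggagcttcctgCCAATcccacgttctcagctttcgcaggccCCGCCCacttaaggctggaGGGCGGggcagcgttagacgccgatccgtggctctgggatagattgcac
Psmb4: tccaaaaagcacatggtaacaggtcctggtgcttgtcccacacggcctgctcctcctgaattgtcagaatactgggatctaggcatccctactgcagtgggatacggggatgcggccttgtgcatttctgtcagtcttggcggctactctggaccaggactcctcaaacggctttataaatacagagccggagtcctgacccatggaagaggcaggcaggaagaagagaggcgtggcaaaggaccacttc
Psmb5: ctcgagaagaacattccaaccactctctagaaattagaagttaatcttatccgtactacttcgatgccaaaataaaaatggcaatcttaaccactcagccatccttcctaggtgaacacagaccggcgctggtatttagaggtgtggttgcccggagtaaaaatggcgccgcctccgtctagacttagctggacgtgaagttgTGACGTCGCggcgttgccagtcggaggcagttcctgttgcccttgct

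The Psma1 stretch holds CCAAT, known as the box bound by NF-Y, at 126 and 98 bases before the start, and GGGCGG, known as a GC box, at 68 and 49. The Psmb4 stretch holds neither. The Psmb5 stretch holds TGACNNNGC, the core of the antioxidant response element to which NRF1 and its relative NRF2 bind, 47 bases before the start.

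Promoter windows were found for 29 of the 36 members, with 31 windows in all, and 4 motifs were searched on both strands. TGACNNNGC stood in 5 of 31 member windows (16.1%) and in 10.2% of all 32851 windows of the same length. The 5 genes were Psmb5, Psmb6, Psmc6, Psmd9 and Psmd12. Of these, Psmb6, Psmc6 and Psmd12 passed the alternation test given below, and Psmb5 and Psmd9 did not. No test set the motifs against the expression values. CCAAT stood in 12 (38.7%, against 33.8% of all), GGGCGG in 17 (54.8%, against 32.7%) and CACGTG, an E-box, in 2 (6.5%, against 6.0%). Matches of different motifs can share bases, as in Psmd9, where TGACNNNGC began 31 and GGGCGG 26 bases before the start. The median GC content was 54.8% in member windows and 52.4% in all. Psma8, Psmb1, Psmb2, Psmb7, Psmc3, Psmd3 and Psmd7 had no window. The motifs and the printed genes were chosen after expression values had been seen, and a match is a description of the letters only.

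Signals are log2 values as the authors deposited them, and a difference of 1 is a factor of 2. Array medians lay between 5.19 and 5.28. The probes of 34 members had means between 6.73 (Psmd9) and 9.72 (Psmd2). The other 2 members read low: Psma8, the alpha subunit of the testis, at 4.03, and Psmb11, the beta subunit of the thymus, at 4.58. Signals of different probes are not comparable as levels, so the order of the genes by signal is not used below.

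**Figure D1:**
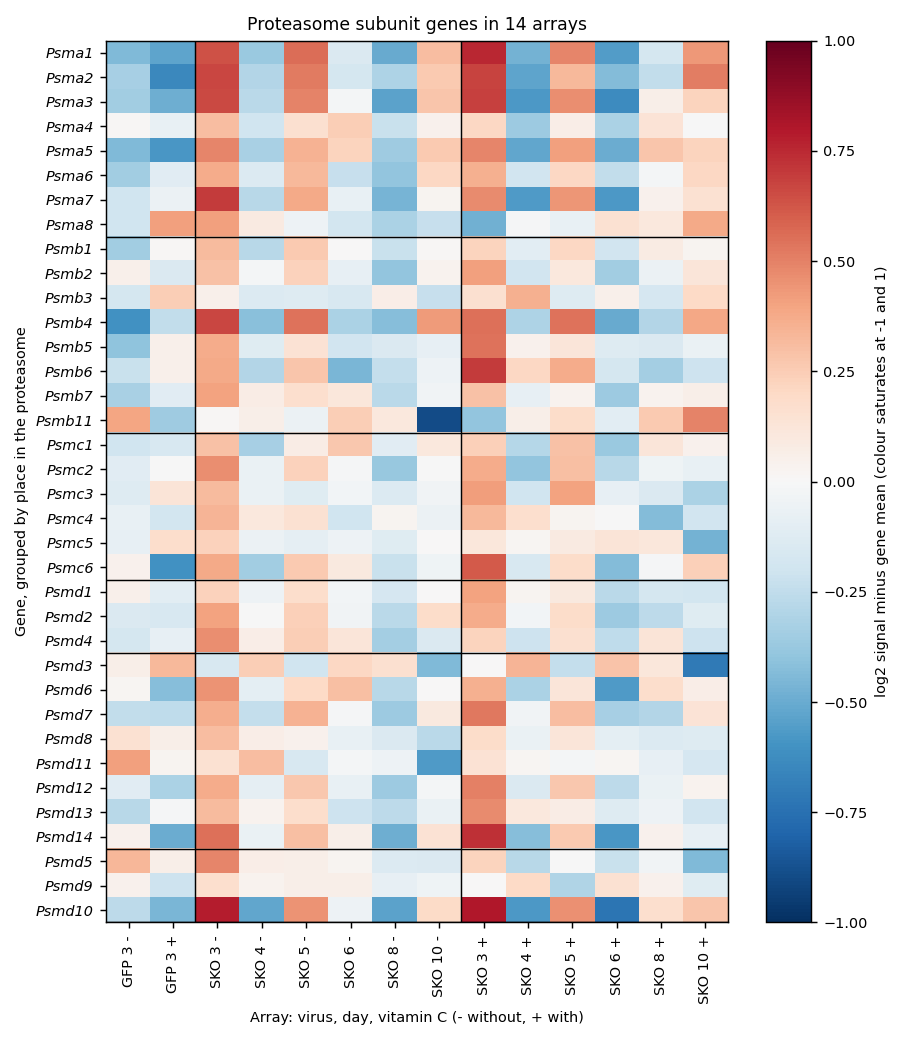
The log2 signal of each of the 36 genes (rows, grouped by place in the proteasome and parted by lines) in each of the 14 arrays (columns: virus, day, and vitamin C as minus or plus), less the mean of that gene over the 14 arrays. Most rows are red on days 3 and 5 of the SKO cells in both arms and blue on days 4 and 6, while Psmd3 shows the opposite.

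Most subunit genes of SKO cells stood higher on days 3 and 5 than on days 4 and 6, in both arms. Averaged over the 36 genes, each centred on its own mean, the level was 0.38 without and 0.35 with vitamin C on day 3, -0.11 and -0.15 (day 4), 0.19 and 0.18 (day 5), and -0.02 and -0.26 (day 6). It was -0.25 and -0.04 (day 8), and -0.02 and 0.01 (day 10). On day 3, 35 of 36 genes without and 34 with vitamin C stood above their own mean, on day 4 only 11 in each arm. The median over all genes, centred likewise, was -0.0055 without and 0.0044 with vitamin C on day 3, and 0.0055 and 0.0357 on day 4. The 2 GFP arrays of day 3 were at -0.13 without and -0.15 with vitamin C, next to SKO day 4 and not SKO day 3. In bulk samples such as these, fewer cells of a type and less RNA per cell cannot be told apart, nor can a day and any handling its 2 arrays shared.

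**Figure D2:**
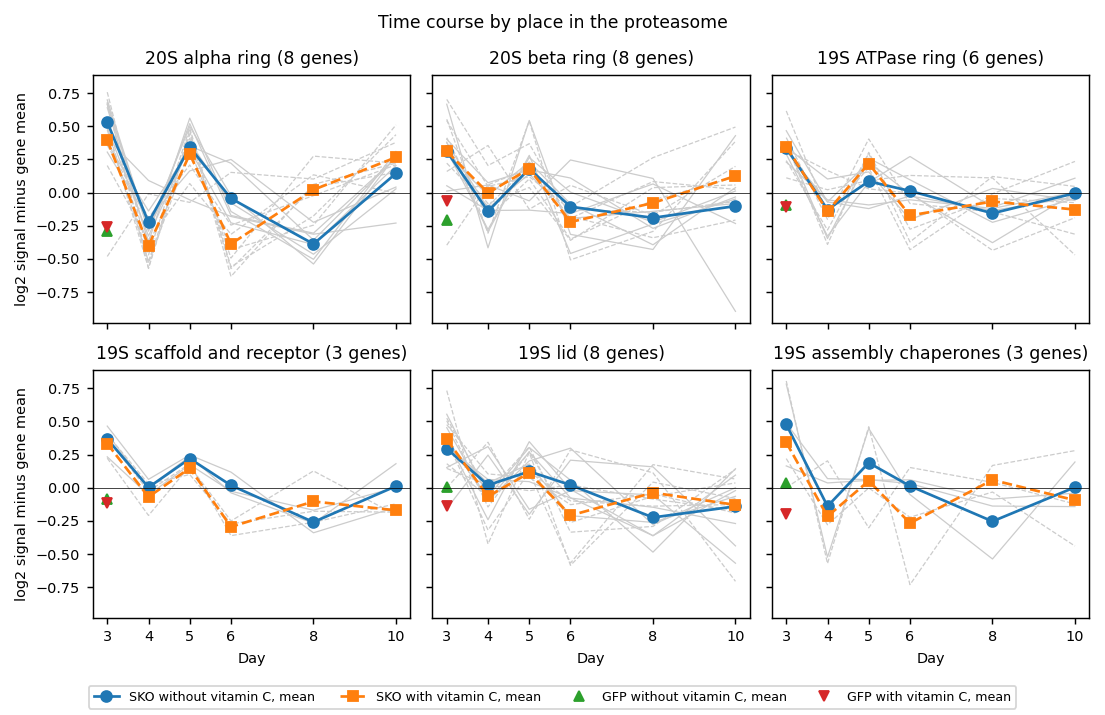
Mean log2 signal less the gene's own mean (vertical axis) against the day (horizontal axis) for the 6 places in the proteasome, with grey lines for single genes, circles for SKO without and squares for SKO with vitamin C, and triangles for the GFP arrays. The alpha ring has the widest swing, from 0.53 and 0.39 (day 3) to -0.22 and -0.40 (day 4), and back to 0.34 and 0.29 (day 5).

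An alternation was computed for each gene over days 3 to 6 of the SKO cells, from 2 parts: how far day 4 stood above the average of its neighbours, days 3 and 5, and how far the average of days 4 and 6 stood above day 5. The mean of both parts removes a straight trend, and days 4 and 5 weigh more in it than days 3 and 6. A negative value means that days 4 and 6 lay below days 3 and 5 by this weighting, not in every array. The alternation was negative for 14 members and positive for 1, Psmd3, in limma at an adjusted p under 0.05. Of all genes 12.5% passed, 5.94% as negative and 6.53% as positive, so the members' shares of 41.7% and 38.9% lay above the background. The median over the 36 members was -0.36, against 0.02 over all genes. Psma8 was among the 6646 genes of lowest mean signal. Without them, 12.6% of genes passed as negative, and 16 of 35 members did. The pattern over days 3 to 6 was known from earlier results of these data, so its presence here is no independent support for it.

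The alpha ring alternated most, with 6 of its 8 genes past the threshold and a median of -0.81. Given without and then with vitamin C, the signal of Psma1 (chr7:114264550-114276116) on day 3 was 9.37 and 9.49, on day 4 it dropped to 8.36 and 8.26, day 5 had 9.29 and 9.21, and day 6 had 8.59 and 8.17. Day 8 gave 8.23 and 8.55, day 10 gave 9.04 and 9.16, and GFP cells gave 8.28 and 8.20. All 6 arrays of days 3, 5 and 10 were thus above all others. Its alternation was -0.97 ± 0.14 (SE), a factor of 1.96 (limma adjusted p = 0.00348).

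Psma2 (-0.87 ± 0.13), Psma3 (-0.93 ± 0.18), Psma5 (-0.76 ± 0.19) and Psma7 (-0.85 ± 0.17), which encode other subunits of the gated ring, had like values, and Psma6 was smaller at -0.47. The 3 probes of Psma3 gave -0.83, -0.98 and -0.93, and the 2 of Psma5 gave -0.76 and -0.69. Psma4, another alpha subunit, stood at -0.37 and did not pass (adjusted p = 0.137). Psma8, the weak testis gene, stood at 0.08.

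In the beta ring 2 of 8 genes passed, with a median of -0.31. Psmb4 (chr3:94884324-94886958), a subunit without a protease site, gave the smallest adjusted p of all members. Without and with vitamin C it read 9.21 and 9.10 (day 3), 8.13 and 8.24 (day 4), 9.09 and 9.09 (day 5), 8.23 and 8.04 (day 6), 8.12 and 8.26 (day 8), and 8.98 and 8.93 (day 10), with 7.94 and 8.30 in GFP cells. The arrays fell into a high set, days 3, 5 and 10 of the SKO cells, and a low set, days 4, 6 and 8 and GFP, with nothing between 8.30 and 8.93. Its alternation was -0.93 ± 0.11 (limma adjusted p = 0.00318).

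Of the 3 protease subunits 1 passed. Psmb6 (chr11:70525324-70527858), of the caspase-like site, had an alternation of -0.49 ± 0.14. Psmb5 (chr14:54614120-54617995), of the chymotrypsin-like site, stood at -0.28 ± 0.11 (adjusted p = 0.120). Psmb7 (chr2:38588046-38643952), of the trypsin-like site, read 9.76 and 9.65 (day 3), 9.44 and 9.28 (day 4), 9.53 and 9.40 (day 5), and 9.47 and 9.00 (day 6), and its days overlapped. Psmb3, a structural beta subunit, stood at 0.14 and the thymus gene Psmb11 at 0.06, neither past the threshold.

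In the cap, 2 of 6 ATPase genes passed, Psmc2 and Psmc6, with a median of -0.38 for the ring, whose 6 values ran from -0.52 to -0.05. None of the 3 scaffold and receptor genes passed, although Psmd1, Psmd2 and Psmd4 lay close together between -0.31 and -0.23. Among the lid genes Psmd7, Psmd12 and Psmd14 passed with negative values. Psmd14, the deubiquitinase, was the largest of them at -0.62 ± 0.18.

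Psmd10 (chrX:140948425-140956711) encodes gankyrin, a chaperone that holds ATPase subunits while the cap is built, and had the largest alternation of the members. It read 8.12 and 8.15 (day 3), 6.82 and 6.77 (day 4), 7.79 and 7.80 (day 5), 7.29 and 6.61 (day 6), 6.81 and 7.51 (day 8), and 7.54 and 7.62 (day 10), without and with vitamin C. The alternation came to -1.05 ± 0.19, a factor of 2.06 (limma adjusted p = 0.00743). The other chaperones, Psmd5 (-0.21) and Psmd9 (0.19), did not pass.

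Psmd3 (chr11:98682554-98695978), a lid subunit, ran the other way. It read 7.61 and 7.77 (day 3), 8.01 and 8.11 (day 4), 7.56 and 7.53 (day 5), 7.97 and 8.05 (day 6), 7.92 and 7.88 (day 8), and 7.33 and 7.06 (day 10), without and with vitamin C. The 6 arrays of days 4, 6 and 8 were all above the 6 of days 3, 5 and 10. Its alternation was 0.47 ± 0.12 (limma adjusted p = 0.0259). Psmd11, another lid subunit, which is known from human embryonic stem cells for a high level and a role in proteasome activity, stood at 0.16 and did not pass.

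In 20 of 36 members all 4 arrays of days 3 and 5 lay above all 4 of days 4 and 6, against 9.66% of all genes. In 9 of them, Psma1, Psma2, Psma3, Psma6, Psmb2, Psmb4, Psmd7, Psmd10 and Psmd12, all 6 arrays of days 3, 5 and 10 lay above all 6 of days 4, 6 and 8 (background 3.66%). Only Psmd3 had the reverse order of these 12 arrays, as did 5.7% of all genes. Grouping days 8 and 10 this way was chosen after the data had been seen.

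The count of 15 rests on few arrays. Leaving out an untreated array gave 9 (day 3), 6 (day 4), 1 (day 5) and 17 (day 6), with 9.95%, 4.13%, 0.657% and 14.4% of all genes called in the same fits. Leaving out a treated array gave 10, 3, 3 and 11 for the same days, with 9.32%, 2.2%, 2.35% and 9.77% of all genes. The median of the 36 genes stayed between -0.41 and -0.30 in all 8 fits.

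**Figure D3:**
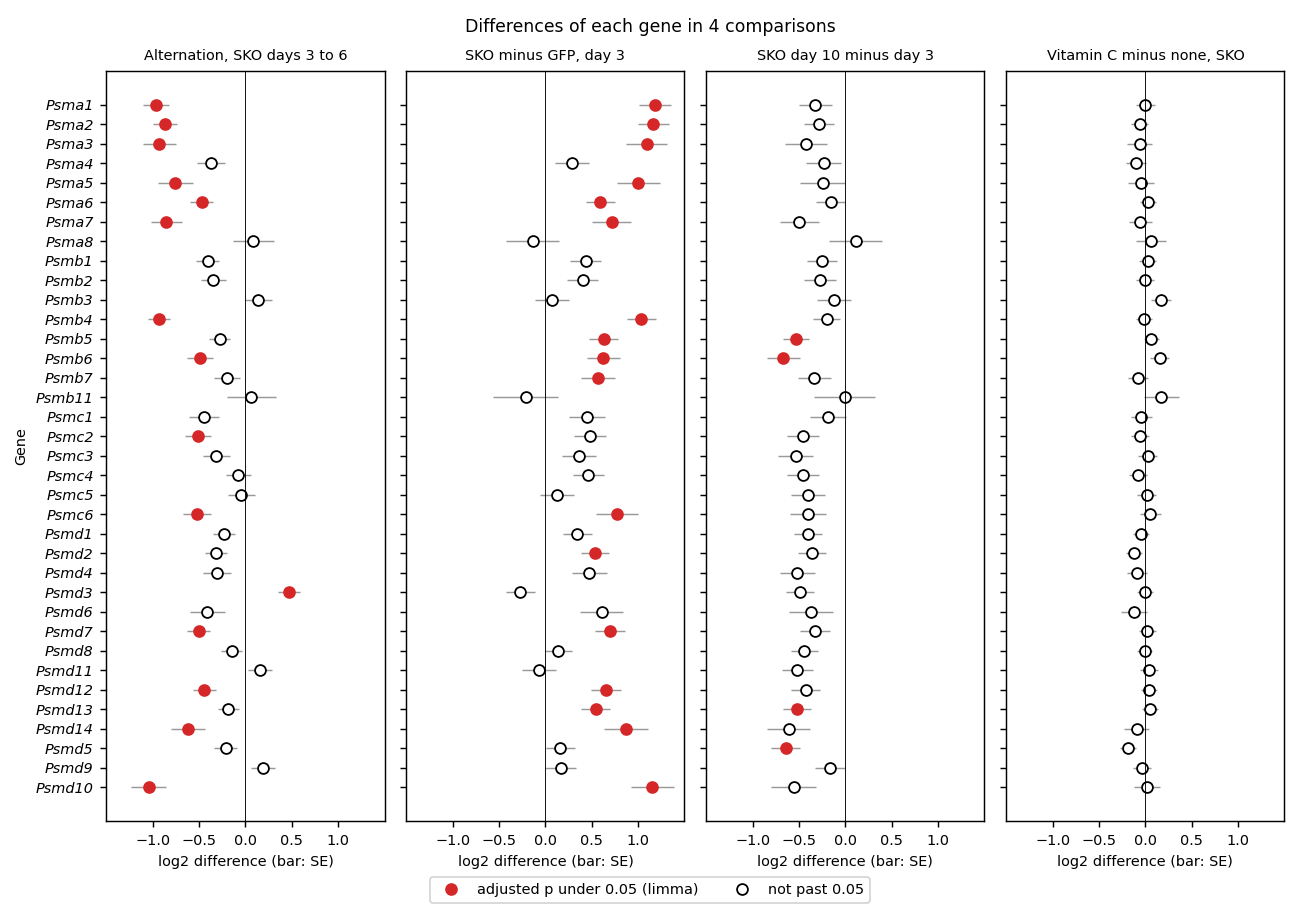
The log2 difference of each of the 36 genes (rows) in 4 comparisons (columns), with bars for the standard error and red points for an adjusted p under 0.05 in limma. Red points are 15 for the alternation, 17 for SKO against GFP on day 3, 4 for day 10 against day 3, and 0 for vitamin C.

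SKO and GFP cells were set against each other on day 3, where 17 of 36 subunit genes were higher in SKO than in GFP cells and 0 lower (limma, adjusted p under 0.05, 2 arrays against 2). Of all genes 17.6% passed, 9.22% as higher and 8.43% as lower. The median of the members was 0.51 and that of all genes -0.04. In 28 of 36 members both SKO arrays lay above both GFP arrays, against 25.8% of all genes. This comparison, the alternation and day 10 against day 3 all use the SKO arrays of day 3, so they are not independent of each other.

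Again the alpha ring was first, with 6 of 8 genes higher past the threshold and a median of 0.86. Psma1 was higher by 1.18 ± 0.17 (SE; 2.27-fold, limma adjusted p = 0.000512), Psma2 by 1.17 ± 0.17, Psma3 by 1.09 ± 0.22 and Psma5 by 1.001 ± 0.23. The other probe of Psma5 differed by only 0.19, and with the mean of its 2 probes the gene no longer passed (0.60, adjusted p = 0.0915). Psmc1, an ATPase gene, stood at 0.45 by the probe used and 0.89 by its other probe, and passed with the mean of both (0.67, adjusted p = 0.0260). In the beta ring 4 of 8 were higher past the threshold. These were Psmb4 at 1.04 ± 0.16 and all 3 protease subunits, Psmb5 at 0.63, Psmb6 at 0.63 and Psmb7 at 0.56.

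In the cap, 1 of 6 ATPase genes (Psmc6, 0.78), 1 of 3 scaffold genes (Psmd2, 0.54) and 4 of 8 lid genes were higher past the threshold. Among these lid genes were Psmd14 (0.87 ± 0.24) and Psmd7 (0.70 ± 0.16). All 6 ATPase genes and all 3 scaffold genes stood above 0, with lowest values of 0.12 and 0.34. Psmd10 was higher by 1.15 ± 0.24. The lowest values were Psmd3 at -0.27 and Psmb11 at -0.21, neither past the threshold.

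The size of this difference followed the SKO day that was chosen. GFP cells were measured on day 3 alone. In place of SKO day 3, day 4 gave 0 called members and a median of 0.03, with 7.78% of all genes called. Day 6 gave 0 and 0.0049 (12.2% of all genes), and day 8 gave 0 and -0.0041 (14.1%). Day 5 gave 9, all higher, and 0.33, with 20.8% of all genes called, 2112 as higher and 2040 as lower. Day 10 gave 8, of which 5 were higher and 3 lower, and 0.11 (24.3% of all genes, 2407 higher and 2435 lower). The members' share of day 10 lay near that of all genes. Psma7, higher by 0.71 on day 3, stood at -0.30 against GFP on day 4 and -0.20 on day 6. Without 1 of the 4 arrays of day 3 the count was 5 (treated GFP), 10 (untreated GFP), 9 (untreated SKO) or 5 (treated SKO), with 7.81%, 13.8%, 10.3% and 6.51% of all genes called. Fibroblast markers moved beside it, with 5 of 9 lower past the threshold in SKO cells of day 3, as were 8.43% of all genes. The list means were 9.91 and 9.88 there against 10.4 and 10.7 in GFP cells. The part of these markers in the difference was not tested.

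**Figure D4:**
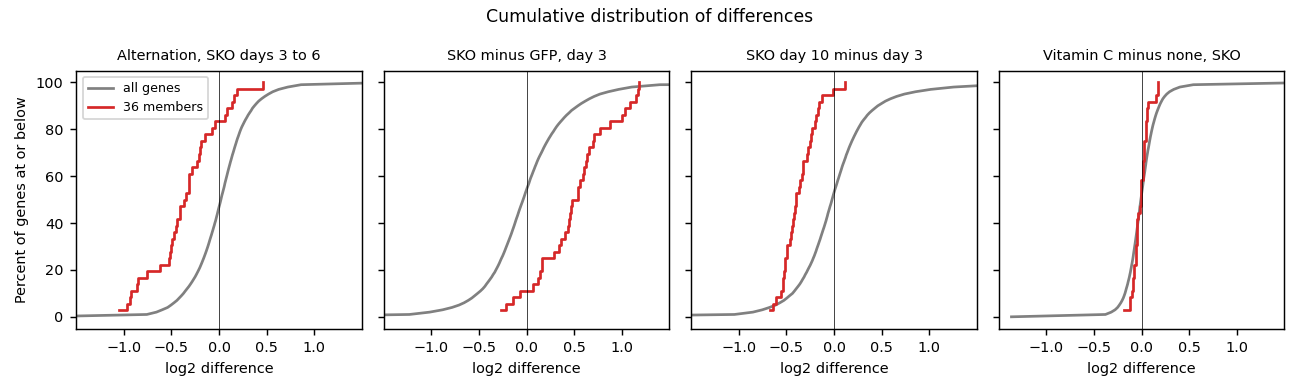
Cumulative percent of genes (vertical axis) at or below a log2 difference (horizontal axis) in 4 comparisons, for the 36 members in red and all 19938 genes in grey. The medians of the members lie at -0.36, 0.51, -0.40 and -0.01 from left to right, and those of all genes between -0.04 and 0.02.

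Over the whole course, from day 3 to day 10, the subunit genes tended lower. The median difference was -0.40, against -0.02 over all genes. Of the 36 members, 35 stood below 0, while 46.9% of all genes stood above 0. In 33 of 36 both arrays of day 10 lay below both of day 3, against 28.7% of all genes. Singly, 4 genes fell in limma (11.1%, against 5.64% of all genes) and 0 rose (6.55% of all genes). In both directions together 12.2% of all genes were called. Without the 6646 genes of lowest mean signal, 8 of 35 members fell (22.9%, against 10.7% of genes). The differences had standard errors from 0.14 to 0.33, and 18 members had an unadjusted p under 0.05, as did 24.7% of all genes.

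The 4 genes were Psmb6 (-0.67 ± 0.18), Psmd5 (-0.64 ± 0.15), Psmb5 (-0.53 ± 0.14) and Psmd13 (-0.52 ± 0.15), with limma adjusted p between 0.0182 and 0.0380. Psmb5 and Psmb6 are protease subunits. Psmb5 read 8.97 and 9.14 (day 3) without and with vitamin C, 8.48 and 8.64 (day 4), 8.74 and 8.71 (day 5), 8.40 and 8.47 (day 6), 8.45 and 8.45 (day 8), and 8.51 and 8.53 (day 10). Day 3 was the highest day in both arms, and the arrays of days 6, 8 and 10 lay between 8.40 and 8.53. Psmb6 read 8.69 and 9.01 (day 3), 8.01 and 8.51 (day 4), 8.59 and 8.67 (day 5), 7.85 and 8.13 (day 6), 8.07 and 7.97 (day 8), and 8.26 and 8.10 (day 10). Psmd5, a chaperone of the ATPases, read 8.11 and 7.84 (day 3) and 7.48 and 7.18 (day 10).

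Among the genes with the widest alternation, Psma1 stood at -0.33, Psma2 at -0.29, Psmb4 at -0.20 and Psmd10 at -0.56 on day 10 against day 3, none past the threshold. Within days 3, 5 and 10 alone, 5 members fell, with 11.1% of all genes called. Without single arrays the count of 4 dropped to 0 or 1, and that of all genes to between 4.83% and 7.58%. With an intensity trend in the test it was 10 (14.4% of all genes), and with each array centred on its median 8 (13.4%). Macrophage markers (9 of 10) and epithelial markers (4 of 5) rose past the threshold over the same days, as did 6.55% of all genes. The former went from list means of 4.45 and 4.68 (day 3) to 6.11 and 5.97 (day 10), and the latter from 4.65 and 4.68 to 5.95 and 6.22. Their part in the subunit values was not tested.

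Between later days few members passed. On day 8 against day 4, 0 members passed (background 2.34%), 0 had an unadjusted p under 0.05 in limma (16.2% of all genes did), and the median was -0.02. On day 10 against day 8, 2 passed (background 3%): Psmb4 rose by 0.77 ± 0.14 (0.802% of all genes rose) and Psmd3 fell by 0.71 ± 0.15 (2.2% fell). The median of the members was 0.11, against 0.02 over all genes, with 27 of 36 members and 53.5% of all genes above 0. Leaving out single arrays of days 8 and 10 moved the members' median to between -0.03 and 0.32, so its sign rests on few arrays. Over all days, 13 members differed in limma's F test (background 18.9%).

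Vitamin C, the treatment the series was built around, gave no called difference in any of the 36 subunit genes of SKO cells over the 6 days (limma, background 0.933%). No member reached an unadjusted p under 0.05 either, as 11.6% of all genes did. The median was -0.01 in the members and -0.01 in all genes, with standard errors between 0.08 and 0.19. The values ran from -0.19 ± 0.09 (Psmd5, adjusted p = 0.460) to 0.17 ± 0.19 (Psmb11), and Psmb3 was also at 0.17. Psmb5 stood at 0.06, Psmb6 at 0.15 and Psmb7 at -0.08.

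Single days differed more than this average. On days 3, 4, 5 and 10 the median of the members lay between -0.05 and -0.01. On day 6 it was -0.26, against -0.02 over all genes, with 26 members lower with vitamin C. On day 8 it was 0.22, against -0.03 over all genes, with 28 members higher. The share of all genes higher or lower on a single day was not counted. Psmd10 showed both days: it differed by -0.68 on day 6 and by 0.70 on day 8, and by no more than 0.09 on any other day. Each day has 1 array per arm, so the values of a single day have no replicate and were not tested. On these days, 6 and 8, the treated array also resembled an untreated array of another day (8 and 10) more than its own partner, by the correlation over all genes of deviations from the arm means.

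The vitamin C difference changed with the day for no member past the threshold, while 7 of all genes passed (background 0.0351%). By unadjusted p 3 members were under 0.05, Psma8 (0.18 per day) and Psmb11 (0.20 per day), which both read low, and Psmb6 (-0.09 per day), beside 7.87% of all genes. In GFP cells the treated array differed from the untreated one by a median of -0.05 over the members and 0.01 over all genes. That difference was not past the threshold against SKO cells in any of the 36 members or of all genes (limma, background 0%), and 1 member, Psmc6, had an unadjusted p under 0.05, as did 6.91% of all genes.

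The immunoproteasome genes, left out of the members by the rule, stood higher on day 10 than on day 3. Psmb8, which replaces Psmb5, read 4.17 and 3.94 (day 3) without and with vitamin C, 4.25 and 4.80 (day 4), 4.16 and 4.43 (day 5), 4.53 and 4.46 (day 6), 4.36 and 5.25 (day 8), and 4.77 and 5.34 (day 10). Psmb9, which replaces Psmb6, read 5.89 and 5.20 (day 3) and 6.20 and 6.87 (day 10). Psmb10, which replaces Psmb7, read 5.45 and 5.70 (day 3) and 5.93 and 6.64 (day 10). In all 3 genes both arrays of day 10 lay above both of day 3, an order whose share over all genes was not counted. The opposite order held in 33 of the 36 members and in 28.7% of all genes.

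From day 3 to day 10 Psmb8 rose by 0.998 ± 0.24 (limma adjusted p = 0.0169) and Psmb9 by 0.99 ± 0.27 (adjusted p = 0.0311), while Psmb10 stood at 0.71 ± 0.23 (adjusted p = 0.0634). None alternated past the threshold, with values between -0.07 and 0.28. The treated GFP array read 5.68 for Psmb8, 6.72 for Psmb9 and 6.69 for Psmb10, against 4.41, 5.80 and 5.55 in the untreated one. On day 3 Psmb8 was lower in SKO than in GFP cells by 0.99 on the log2 scale (limma adjusted p = 0.0270). The untreated GFP array, at 4.41, lay closer to the SKO arrays, at 4.17 and 3.94, than the treated one did. In SKO cells the vitamin C differences were 0.33 (Psmb8), 0.16 (Psmb9) and 0.46 (Psmb10, adjusted p = 0.148), none past the threshold, and Psmb10 was higher with vitamin C on all 6 days. The rise to day 10 went with that of the macrophage markers given above; their part in it was not tested.

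**Figure D5:**
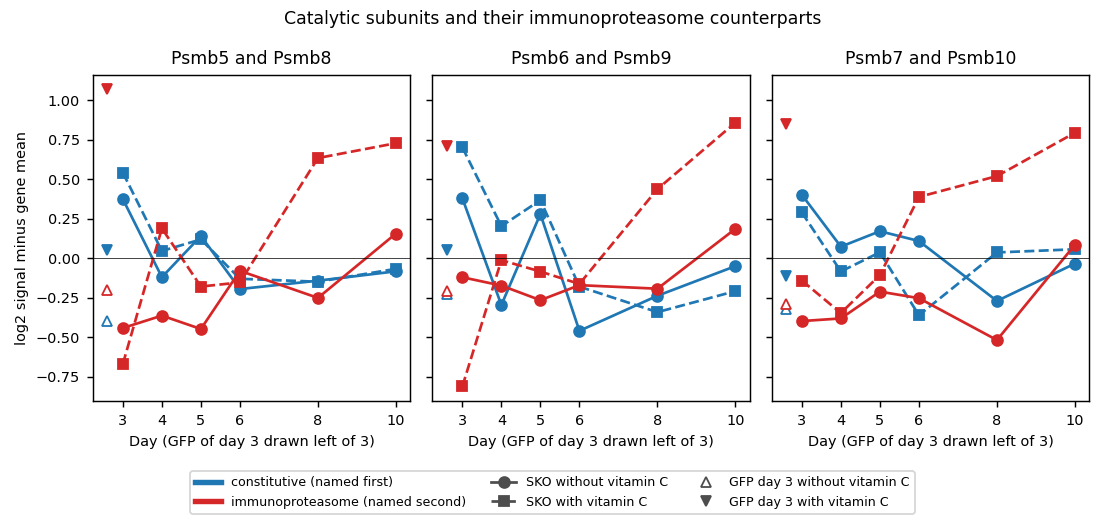
The log2 signal less the gene's own mean (vertical axis) against the day (horizontal axis) for the 3 protease subunits in blue and the immunoproteasome subunits that replace them in red, with solid lines without and dashed lines with vitamin C, and triangles for GFP cells. The blue lines are highest on day 3, and the red dashed lines end on day 10 at their highest SKO value.

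Genes that build, regulate or serve the proteasome were divided. Of 5 genes for chaperones of the 20S core, Psmg2 (-0.66) and Pomp (-0.45) had a negative alternation past the threshold. Sem1, which encodes a small lid subunit that the naming rule does not take in, read 9.23 and 9.07 (day 3), 8.26 and 8.12 (day 4), 9.18 and 9.10 (day 5), and 8.04 and 8.06 (day 6), with no overlap. Its alternation was -0.99 ± 0.11 (limma adjusted p = 0.00226), and it was higher in SKO than in GFP cells on day 3 by 0.90 ± 0.14. Of the 5 genes for activators and an inhibitor, Psme2 (-0.46) and Psme4 (-0.42) alternated, and Psme1, Psme3 and Psmf1 did not pass. Uba6, a ubiquitin-activating enzyme and the only gene measured of 6 on its list, also alternated (-0.63, limma adjusted p = 0.0189). It fell from day 3 to day 10 by 0.93, and Usp14, a deubiquitinase that sits on the proteasome, by 0.90. In that comparison 1 of the 5 core chaperones and 2 of 4 measured shuttle genes fell past the threshold (5.64% of all genes did). Rad23b was the lowest shuttle gene at -0.58. Ubqln4, another shuttle, alternated the other way (0.88 ± 0.16).

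Among 6 measured regulators of proteasome gene transcription none passed in any of the comparisons given above. Nfe2l1 itself stood at -0.11 for the alternation, 0.15 for SKO against GFP on day 3, -0.14 for day 10 against day 3, and -0.26 for vitamin C (adjusted p = 0.214). Its vitamin C difference, from 1 array per arm and day, was negative on all 6 SKO days, between -0.44 and -0.12, and -0.63 in GFP cells. Its protein is activated after translation, by removal of sugars through Ngly1 and by cleavage, which these arrays do not measure.

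The COP9 signalosome resembles the proteasome lid in its subunits, and the CCT chaperonin is a different barrel that folds proteins. Of 10 COP9 genes, Cops5 (-0.79) and Cops2 (-0.53) had a negative alternation past the threshold, as did 5.94% of all genes. The median of the 10 was -0.11. Of 8 CCT genes 5 passed as negative, from Cct8 (-0.62) to Cct5 (-0.38), with a median of -0.44 over the 8. On day 3, 4 of the 8 were higher in SKO than in GFP cells past the threshold, as were 9.22% of all genes. The median of the 36 proteasome genes, -0.36, thus lay between those of the 2 complexes, and no test set the 3 lists against each other.

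Across the 14 arrays the members varied together to different degrees. The median Pearson r over 630 pairs of members was 0.57. For 20 members r with the mean of the others was above 0.8, led by Psmd12 (0.969), a lid subunit, Psmd10 (0.943) and Psma3 (0.940). For 6 it was below 0: Psmd3 (-0.514), Psmb11 (-0.168), Psmb3 (-0.102), Psma8 (-0.08), Psmd9 (-0.056) and Psmd11 (-0.028). Of the other 19902 genes, 663 (3.33%) had an r above 0.8 with the mean of the members. The 10 most alike were Sft2d1 (0.972), Cct8 (0.969), Eif2b3 (0.965), Cct3 (0.962), Atg4a (0.960), Gar1 (0.959), Adss (0.958), Ergic2, Sae1 and Polr3k (0.954 each). All these values share the same 14 arrays, which hold the alternation, and describe them only.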

How the data were processed

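Affymetrix whole-transcript arrays measured the RNA of 14 cultures, and the labels' protocols give 100 ng of RNA as the start of the cDNA. Each probe has 1 deposited value on each array, taken here as a log2 signal from their range (0.72 to 14.1) and the usual output of RMA. Per the submitters' processing notes RMA and Partek were used; no version of either is given there. RMA compresses differences of weak genes, and signal of background probes was not used.

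Of 28853 probes, 21789 had 1 gene symbol in the platform annotation, 1621 several and 5443 none. Symbols were updated with the RefSeq gene table of GRCm38.p6. The probe with the highest mean stood for a gene (19938 genes, 999 with several probes; 5 members with several). Gene and promoter positions are those of RefSeq, and positions of the probes were not used.

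Values were not normalized again. Tests were limma's lmFit and eBayes (version 3.58.1, under R 4.3.3). P-values were adjusted by Benjamini and Hochberg's method across the 19938 genes, and 0.05 was the threshold. The 12 SKO arrays were fitted with day as a factor and vitamin C (5 residual degrees of freedom), and the slope of the vitamin C difference was added to this fit (4). All 14 arrays served for SKO against GFP (6) and for the vitamin C difference of GFP against SKO cells (5). There was 1 array per condition and day, so p-values measure the spread within 1 time course, not between independent cultures. Precision is limited by how few arrays there are.

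The labels pair treated and untreated arrays by day. Deviations from the arm means correlated across genes within a day at r between 0.248 (day 6) and 0.677 (day 3). Another day's untreated array was a better match than the partner for the treated arrays of days 6 and 8.

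The members, the lists and the alternation were chosen with earlier results of these data known. All members could be named; per comparison, values are given for up to 8 called genes in each direction or for the largest, and for related genes that passed or led their list. The alternatives tried were an intensity trend, quantile normalization, arrays centred on their medians, a filter that removed 6646 genes of mean signal under 4.54, the mean of all probes, no day block, sets of days, other SKO days against GFP (all but day 4 chosen after seeing the data), and leaving out each array or day. Python 3.11.15 with matplotlib 3.10.9 drew the figures.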

Additional observations from a re-analysis of the deposited data

Results flagged for a closer look

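The vitamin C difference of 4 of the 36 members had a day that stood far from the other 5 by Dixon's test at its 95% critical value. For normal, independent values this rule picks about 1 in 20 genes by chance. It was run on the members alone, so the share it picks of all genes is not known. The count is therefore not a result about the members. Psma6, an alpha subunit, differed by 0.3685 on day 8, with the other days between -0.1167 and 0.0062. Psmd4, a ubiquitin receptor, differed by 0.4659 on day 8 and was lower with vitamin C on all other days, between -0.3682 and -0.0572. Psmc1, an ATPase, differed by -0.6438 on day 6, with the others between -0.0622 and 0.2323. Psmb11, the thymus subunit with a low signal, differed by 1.3888 on day 10, with the others between -0.4075 and 0.2462.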

How the results depend on the processing

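Vitamin C in SKO cells, its slope per day, day 8 against day 4, and vitamin C in GFP against SKO cells kept 0 called members under every alternative run, including no replicate block for vitamin C (0 members, 4 of all genes called). Calls for day 10 against day 3 rose from 4 to 8 with each array centred on its median (13.4% of all genes called, their median moved to -0.09), to 8 without the 6646 weakest genes (20.7%), and to 10 with an intensity trend (14.4%), against 12.2% in the fit reported. Day 10 against day 8 rose from 2 to 4 with quantile normalization (2.55% of all genes), without the weakest genes (8.22%) and with the trend (6.14%), and the F test over days from 13 to 21 with the trend (25.1%). Leaving out 1 array gave 1 to 17 calls for the alternation, 5 to 10 for SKO against GFP, 0 to 1 for day 10 against day 3 and 0 to 2 for day 10 against day 8; fewer samples are part of these settings. The alternation otherwise stayed between 12 and 19 calls, and SKO against GFP on day 3 between 16 and 19.

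Against GFP, SKO day 4 gave 0 calls (7.78% of all genes), day 5 gave 9 (20.8%), day 6 gave 0 (12.2%), day 8 gave 0 (14.1%) and day 10 gave 8 (24.3%). Genes higher on day 3 that turned sign were Psma3 (-0.0036), Psma7 (-0.30), Psmd10 (-0.19) and Psmd14 (-0.0162) with day 4; Psma6 (-0.0069), Psma7 (-0.20), Psmb6 (-0.23), Psmd10 (-0.03), Psmd13 (-0.025), Psmd14 (-0.0353) and Psmd2 (-0.0491) with day 6; Psma7 (-0.0845), Psmb6 (-0.20), Psmd13 (-0.0102), Psmd2 (-0.11) and Psmd7 (-0.0751) with day 8; and Psmb6 (-0.0433) with day 10, none of them past the threshold. The cause was not tested. Of 3267 values of single genes under alternatives, 2797 kept direction and side of the threshold.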
